A study of Mus musculus with 10 samples.

Results

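Angiotensin II (AngII) was compared with PBS in hearts of mice that lack protein kinase C zeta (PKCz, gene Prkcz). The comparison holds the 5 knockout (KO) arrays of a series of 10: KO AngII 3 and 4 (n = 2) and KO PBS 2, 3 and 4 (n = 3), numbered as in their titles. They were chosen by genotype and treatment in the sample titles, and all 45037 probe sets that are not array controls were compared. The other 5 arrays come from wild-type (WT) littermates under AngII (n = 3) or PBS (n = 2) and enter only where a KO difference is set beside the WT one.

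All mice were SV129 males, 32 weeks old. KO mice carried the genotype PKCZ -/-, and the labels do not say how the allele was made. Osmotic minipumps delivered AngII under the skin over 14 days, with a daily dose of 432 µg per kg. The controls are named PBS in titles and design text but non-treated in their source label, so whether they carried a pump is not settled by the labels. The labels do not state that the arrays of a group came from separate animals. The p-values therefore reflect the spread of these samples alone, and that spread may be technical.

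AngII is a peptide hormone that acts through a receptor coupled to the G protein alpha-q, raises blood pressure and, over days of infusion, enlarges the heart. Enlarged cardiomyocytes typically express more natriuretic peptides and fetal contractile genes, and cardiac fibroblasts lay down collagen. The title of the series places PKCz between alpha-q and the kinase ERK5, a MAP kinase encoded by Mapk7.

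The tissue label fitted its markers. The 14 cardiomyocyte markers averaged 14.01 to 14.07 on the 5 arrays, against 7.19 to 7.25 for all 18193 genes (log2 RMA values, the scale of every level given here). Prkcz read 5.87 and 5.87 on the KO AngII arrays and 5.70, 5.76 and 5.85 on the KO PBS arrays. All 5 lay below the 5 WT arrays, at 6.23 to 6.45. Whether its probe set covers the deleted exons could not be read from the sources used, so it is a limited check of the genotype.

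The KO arrays differ in a technical signal that overlaps with treatment. Bacterial poly-A RNAs that are spiked into the sample before labelling read 6.90 and 7.01 on KO AngII 3 and 4 and 7.08 on KO PBS 4, but 12.9 on KO PBS 2 and 13.1 on KO PBS 3. The 3′ minus 5′ signal of actin, a measure of RNA integrity and labelling length together, was 0.83, 0.74 and 0.75 on the low-spike arrays. It was 1.38 and 1.28 on KO PBS 2 and 3. That of Gapdh was 0.12, 0.07 and 0.02 on the low-spike arrays and 0.47 and 0.40 on KO PBS 2 and 3. Each KO AngII array correlated with KO PBS 4 at r = 0.9948, close to their r of 0.9951 with each other, and with KO PBS 2 and 3 at 0.9839 to 0.9894. The KO AngII mean differed by at least 1 log2 unit from the mean of KO PBS 2 and 3 in 323 probe sets, KO PBS 4 did so in 359, and KO AngII differed that much from KO PBS 4 in 52. Differences are given against all 3 KO PBS arrays and, for most genes named, also against KO PBS 4 alone, which equals fitting the spike-in level as a block. The value against KO PBS 4 rests on 1 control array.

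Across all probe sets, 0 of 45037 (0.0%) passed an adjusted p under 0.05 in limma's moderated test against the 3 KO PBS arrays, and 0 (0.0%) passed against KO PBS 4. At an unadjusted p under 0.05 there were 2060 probe sets (4.57%), 979 higher (2.17%) and 1081 lower (2.4%), and 409 (0.908%) against KO PBS 4. That split moved with the scaling and the filter: it was 612 higher and 1497 lower with equal array medians, and 294 higher and 833 lower over the brighter probe sets. A comparison of 2 arrays with 3 by an exact permutation test has 10 arrangements and cannot go below a two-sided p of 0.1. When the spread was estimated from the 5 KO arrays alone, 2 probe sets passed (0.00444%), those of Col3a1 and Col1a1, and 6 passed against KO PBS 4 (0.0133%). In what follows rose is used only for these; other values are given as differences that did not pass.

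The clearest response of the KO hearts was in the extracellular matrix. Col3a1 and Col1a1, which encode the chains of collagen III and collagen I that make up most scar collagen, rose 2.68-fold and 2.81-fold in the fit of the 5 KO arrays. Of 54 measured genes of the matrix and of collagen processing, 47 were above 0 (47.9% of all 18193 genes were), with a median difference of 0.40 log2 units against −0.01 for all genes. Against KO PBS 4 the list's median was 0.66 and 52 of 54 were above 0 (50.4% of all genes). KO PBS 4 had the lowest matrix level of any array. Its matrix genes averaged −0.56 from their overall mean, beside −0.34 on KO PBS 2 and −0.31 on KO PBS 3. The larger median therefore rests on a low control and does not show a stronger response. Both KO AngII arrays lay above all 3 KO PBS arrays for 35 of the 54 genes (64.8%), and below them for 0, where 12.5% of all genes lay above and 13.5% below.

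**Figure D1:**
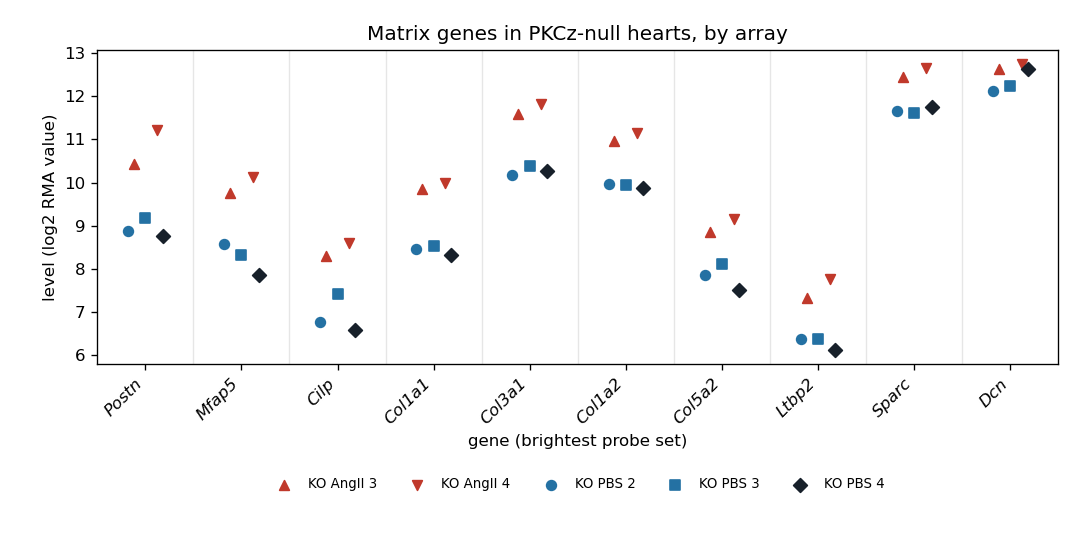
Levels (log2 RMA values, vertical axis) of 10 matrix genes on each KO array; red triangles are the 2 KO AngII arrays, blue circles and squares KO PBS 2 and 3, black diamonds KO PBS 4. For every gene but Dcn, both triangles stand clear of all 3 PBS points. For Dcn KO PBS 4, at 12.63, lies beside KO AngII 3, at 12.64. That separation was a condition for choosing every gene shown but Sparc and Dcn.

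Col3a1 read 11.58 and 11.82 on the KO AngII arrays and 10.18, 10.38 and 10.27 on the KO PBS arrays. The groups were separated by over 1 log2 unit, and KO PBS 4 lay between the other controls. The difference was 1.42 ± 0.13 (SE; limma adjusted p = 0.0315 in the fit of 5 KO arrays), and 1.43 against KO PBS 4. A second, dimmer probe set of the gene differed by 1.71.

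Col1a1 read 9.85 and 9.99 under AngII and 8.45, 8.52 and 8.32 under PBS, again with no overlap. It rose by 1.49 ± 0.15 (limma adjusted p = 0.0346, 5 KO arrays) and by 1.61 against KO PBS 4. Its second probe set differed by 0.98. In that fit both calls were lost when a single KO array other than KO PBS 4 was left out. Without KO PBS 2, KO PBS 3, KO AngII 3 or KO AngII 4 the adjusted p was 0.107, 0.0973, 0.105 and 0.855 for Col3a1, and 0.156, 0.0973, 0.249 and 1.0 for Col1a1, with differences of 1.30 to 1.54 and 1.42 to 1.56.

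In the fit over all 10 arrays the same differences had an SE of 0.63 for Col3a1 and 0.85 for Col1a1, and an adjusted p of 0.892 each. The median SE of the matrix genes was 0.44 over 10 arrays and 0.17 over the 5 KO arrays, while for all genes it was 0.16 and 0.15. One WT array stood apart: the matrix genes of WT AngII 2 averaged 1.68 above their overall mean, and those of the other 9 arrays −0.56 to 0.16. Without WT AngII 2 the adjusted p was 0.0785 for Col3a1 and 0.0744 for Col1a1.

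The matricellular gene Postn, which encodes periostin of activated fibroblasts, had the largest difference of the list from all 3 controls. It read 10.43 and 11.21 under AngII and 8.88, 9.18 and 8.76 under PBS. The difference was 1.88 ± 0.81, and 2.06 ± 1.14 against KO PBS 4 (SE, 10 arrays, adjusted p = 0.892 and 1.0). KO AngII 4 was the highest array, and the lower AngII array still exceeded every control.

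Mfap5, a microfibril protein, read 9.76 and 10.14 against 8.57, 8.33 and 7.86. It differed by 1.70 ± 0.60 from all 3 controls and by 2.10 ± 0.82 from KO PBS 4, the lowest control. Both of its probe sets were among the 6 that passed against KO PBS 4 in the fit of 5 arrays, at 2.10 and 2.03. The others in that set were Col1a1, Col3a1, a probe set of the collagen V chain Col5a2 at 1.77 (adjusted p = 0.0447) and Nppa.

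Further matrix genes were higher without passing. Cilp, a cartilage matrix protein also made by cardiac fibroblasts, differed by 1.52 ± 0.88 (1.86 against KO PBS 4), and Ltbp2, a latent TGF-beta binding protein, by 1.26 ± 0.77 (1.44). The collagen I chain Col1a2 differed by 1.12 ± 0.69 (1.18 against KO PBS 4) through its brightest probe set, while its 3 probe sets ranged from 0.00 to 1.57. Sparc, a collagen-binding protein, differed by 0.87 ± 0.40 (0.79 against KO PBS 4). Dcn, the small proteoglycan decorin, differed by 0.36 ± 0.19 from all 3 controls but by 0.06 ± 0.23 from KO PBS 4.

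Fibroblast markers had a smaller median than the matrix genes. The 15 fibroblast markers had a median of 0.18 (0.24 against KO PBS 4), with 6 of 15 (40.0%) above and 1 (6.67%) below all controls, beside 12.5% and 13.5% of all genes, and the 3 collagens, Postn, Dcn, Lum and Lamc1 are in the matrix list as well. The 32 genes of TGF-beta and BMP signalling had a median of 0.03 (0.14 against KO PBS 4). Smooth muscle and pericyte markers had a median of 0.05 (14 genes). In bulk tissue, more cells of a type and more RNA per cell cannot be told apart.

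The start regions of Col3a1, Col1a2, Nppa and Ankrd1 are shown because these 2 collagen genes and 2 cardiomyocyte genes stood higher together on both KO AngII arrays. They are the 250 bases before each start from RefSeq (GRCm38.p6), 5′ to 3′ on the gene's strand: chr1:45311288-45311537 (+), chr6:4505368-4505617 (+), chr4:148000472-148000721 (+) and chr19:36119845-36120094 (−). Of 12 genes looked up, 9 had an entry; Col1a1, Mfap5 and Col5a2 did not.
Col3a1: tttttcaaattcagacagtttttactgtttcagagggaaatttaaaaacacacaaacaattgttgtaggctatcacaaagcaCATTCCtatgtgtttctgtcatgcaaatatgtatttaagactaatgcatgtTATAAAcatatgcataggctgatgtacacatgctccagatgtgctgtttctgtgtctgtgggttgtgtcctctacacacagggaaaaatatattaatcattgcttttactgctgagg
Col1a2: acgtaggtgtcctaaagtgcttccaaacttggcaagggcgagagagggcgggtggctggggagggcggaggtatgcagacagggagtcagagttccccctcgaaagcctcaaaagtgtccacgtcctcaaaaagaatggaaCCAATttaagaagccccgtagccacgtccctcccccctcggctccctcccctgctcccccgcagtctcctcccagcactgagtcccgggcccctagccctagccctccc
Nppa: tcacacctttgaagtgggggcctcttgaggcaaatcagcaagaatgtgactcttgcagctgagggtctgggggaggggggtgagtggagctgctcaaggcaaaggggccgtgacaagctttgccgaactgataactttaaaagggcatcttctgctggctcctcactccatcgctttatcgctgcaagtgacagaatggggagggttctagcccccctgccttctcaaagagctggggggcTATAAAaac
Ankrd1: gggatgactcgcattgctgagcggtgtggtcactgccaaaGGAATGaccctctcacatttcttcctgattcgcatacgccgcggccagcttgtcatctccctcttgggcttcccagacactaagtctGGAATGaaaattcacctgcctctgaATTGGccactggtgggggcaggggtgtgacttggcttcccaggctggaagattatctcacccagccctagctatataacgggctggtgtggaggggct
Capitals mark matches, on either strand, to TATAAA, the letters of the TATA box, to CCAAT, a general promoter box, and to GGAATG, the MCAT element of muscle genes. The CArG box, bound by serum response factor, was searched too (1.47% of windows) and had no match in these 4. TATAAA stood 117 to 112 bases before the Col3a1 start and 9 to 4 bases before the Nppa start, and 12.4% of 32851 windows of this length hold it. Col1a2 and Ankrd1 each held 1 CCAAT (33.8% of windows). GGAATG matched once in Col3a1, on the opposite strand, and 2 times in Ankrd1 (12.6% of windows); no matches overlapped.

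The natriuretic peptide Nppa, released by stressed cardiomyocytes, was higher in both AngII hearts. Nppa read 13.95 and 14.05 under AngII and 13.37, 13.13 and 13.07 under PBS, 1.75-fold on average, with no overlap. The difference was 0.81 ± 0.15 (10 arrays, adjusted p = 0.892, unadjusted p = 0.000146) and 0.93 ± 0.20 against KO PBS 4. In the fit of 5 KO arrays against KO PBS 4 it rose by 0.93 (adjusted p = 0.036).

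Ankrd1, a stretch-responsive protein of the sarcomere's I-band, read 13.76 and 13.75 against 13.39, 13.39 and 13.36. The arrays of each group nearly coincided. The difference was 0.38 ± 0.08, and 0.40 ± 0.11 against KO PBS 4 (adjusted p = 0.892 and 1.0); its second probe set differed by 0.71 and 0.50. Acta1, the skeletal actin of the fetal heart, differed by 0.43 ± 0.13 and 0.54 ± 0.17.

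**Figure D2:**
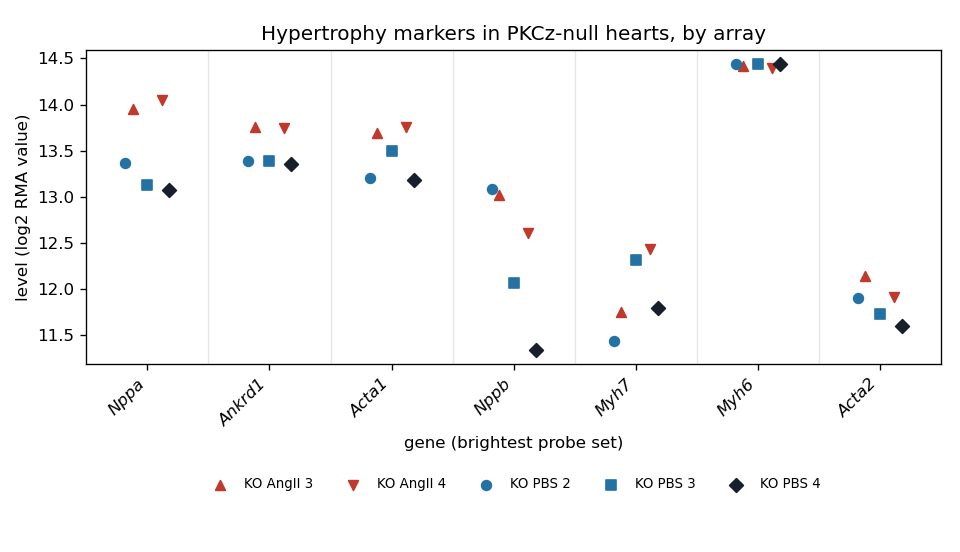
Levels (log2 RMA values, vertical axis) of 7 hypertrophy markers on each KO array, with the same symbols for AngII (red), KO PBS 2 and 3 (blue) and KO PBS 4 (black). Nppa, Ankrd1, Acta1 and Acta2 had both AngII points above all PBS points, while Nppb, with PBS points from 11.34 to 13.09, Myh7 and Myh6 did not.

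The second natriuretic peptide was not separated from the controls. Nppb read 13.02 and 12.61 under AngII and 13.09, 12.07 and 11.34 under PBS. KO PBS 2 exceeded both AngII arrays, so the difference was 0.65 ± 0.36 against all 3 controls but 1.47 ± 0.34 against KO PBS 4, the lowest. Acta2, smooth muscle actin, differed by 0.28 ± 0.15 and 0.42 ± 0.20.

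The myosin switch of the enlarged mouse heart was not seen beyond the spread. Myh7, the slow fetal heavy chain, read 11.75 and 12.44 against 11.44, 12.32 and 11.80, a difference of 0.24 ± 0.31 that was −0.10 without KO AngII 4. Myh6, the adult heavy chain, read 14.42 and 14.40 against 14.44 on each control, near the top of the scale. A dimmer Myh6 probe set read 10.95 and 10.67 under AngII, 11.32 on KO PBS 4, and 6.79 and 7.50 on KO PBS 2 and 3. That probe set separated the arrays by spike-in level, not by treatment.

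Across 27 hypertrophic markers and fetal genes the median was 0.08 and 19 were above 0 (47.9% of all genes were); against KO PBS 4 it was 0.30 and 23 (50.4%). Both AngII arrays stood above all controls for 8 of the 27 (29.6%, and 12.5% of all genes) and below for 1 (3.7%, and 13.5% of all genes), and 4 were higher at an unadjusted p under 0.05 (1.42% of all genes). Hspb7, a small heat shock protein of muscle, was the fourth after Nppa, Ankrd1 and Acta1, at 0.37 ± 0.15, or 0.16 ± 0.18 against KO PBS 4. The 21 sarcomere genes of working myocardium had a median of 0.01, with 7 (33.3%) above and 2 (9.52%) below all controls. The median was −0.05 for the 27 calcium cycling genes and 0.01 for the 14 cardiomyocyte markers. The 11 atrial markers, Nppa among them, had a median of 0.00, with 4 (36.4%) above and 4 (36.4%) below all controls.

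Macrophage genes were modestly higher. Of 16 markers, 10 (62.5%) were above all controls on both AngII arrays (12.5% of all genes) and 0 below (13.5%), with a median of 0.27, and 0.26 against KO PBS 4. Lyz2, lysozyme of myeloid cells, read 10.76 and 10.66 against 10.01, 10.24 and 10.23. C1qa, a complement chain made by tissue macrophages, read 9.63 and 9.90 against 9.40, 9.40 and 9.08. Lyz2 and C1qa differed by 0.48 and 0.69 from KO PBS 4. The mannose receptor Mrc1 differed by 0.31 ± 0.18, and 0.23 against KO PBS 4. At an unadjusted p under 0.05, 0 of the 16 passed over 10 arrays and 6 in the fit of 5 KO arrays, where 2.54% of all genes passed in this direction.

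Antigen presentation genes differed mainly through 1 array. H2-Aa, a class II histocompatibility chain, read 10.49 and 11.42 under AngII against 10.01, 10.34 and 9.75. Cd74, the class II invariant chain, read 10.12 and 10.78 against 9.80, 10.04 and 9.24. For both, KO AngII 4 was well above KO AngII 3, which exceeded the highest control by little. The differences were 0.93 ± 0.60 for H2-Aa and 0.76 ± 0.53 for Cd74, 1.21 each against KO PBS 4, and the 9 B cell markers that include them had a median of 0.26.

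Single genes set KO AngII 3 and 4 apart and were picked out after their values were seen. Retnla, a secreted product of alternatively activated macrophages, read 10.50 on KO AngII 4, 6.62 on KO AngII 3 and 7.31 to 7.48 under PBS. Rnase2a, an eosinophil-associated ribonuclease, read 8.62 on KO AngII 4 and 5.69 to 5.86 on the other 4 KO arrays. Gdpd3, a lysophospholipase D, read 5.66 on KO AngII 3 and 10.33 to 11.08 on the other 4. In each gene 1 KO AngII array stood far from the other, so the values do not describe the treatment group. Whether treatment or the single sample accounts for them was not tested.

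Genes of fatty acid metabolism were lower as a group by small amounts. Of 28 genes of fatty acid uptake and oxidation, 27 were below 0 (52.1% of all genes were), with a median of −0.20. Against KO PBS 4 the median was −0.18, with 26 below 0 and 2 above, where 50.4% of all genes were above. Both AngII arrays lay below all controls for 14 (50.0%, and 13.5% of all genes) and above for 0 (12.5% of all genes). At an unadjusted p under 0.05, 2 of the 28 were lower (2.94% of all genes), and 7 in the fit of 5 KO arrays (3.62% of all genes).

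Decr1, a reductase for unsaturated fatty acids, read 11.27 and 11.20 against 11.74, 11.88 and 11.59. Acaa2, the mitochondrial thiolase, read 12.41 and 12.41 against 12.79, 12.85 and 12.65. Hadha, of the trifunctional protein, read 12.69 and 12.64 against 12.89, 13.05 and 12.85. In all 3 genes KO PBS 4 was the control nearest to the AngII arrays, and the differences of −0.50 ± 0.18, −0.36 ± 0.15 and −0.26 ± 0.13 shrank to −0.36, −0.25 and −0.18 against it. Acads, a short-chain dehydrogenase, had KO PBS 4 (10.34) between the AngII arrays (10.13 and 10.40).

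**Figure D3:**
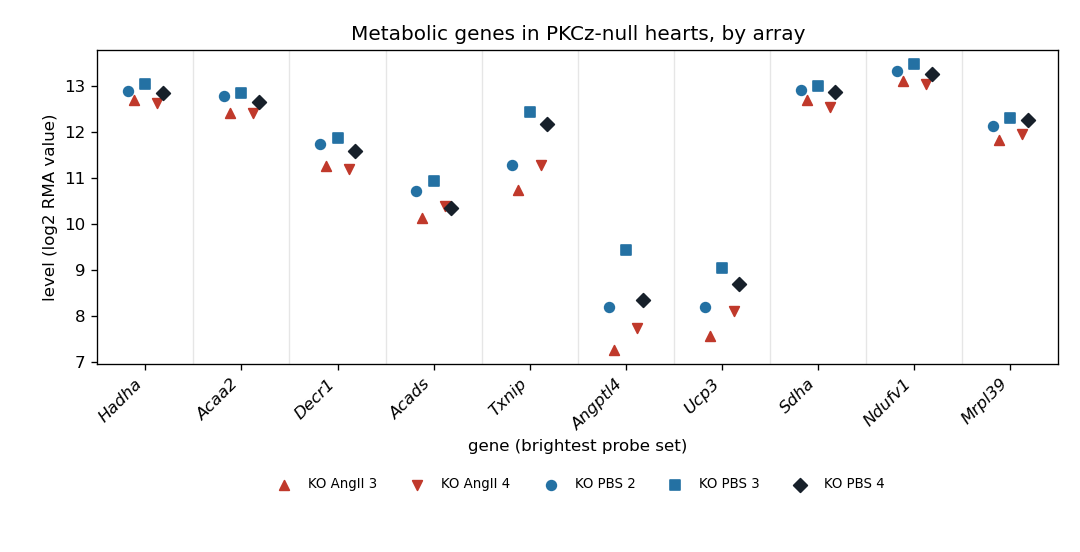
Levels (log2 RMA values, vertical axis) of 10 metabolic genes on each KO array, red for AngII, blue for KO PBS 2 and 3, black for KO PBS 4. Both AngII points lie below all 3 PBS points except for Acads, where KO PBS 4, at 10.34, is below KO AngII 4, at 10.40. For Txnip KO AngII 4 (11.28) and KO PBS 2 (11.29) almost coincide. That separation was a condition for choosing Txnip, Angptl4 and Ucp3.

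Targets of the lipid-sensing PPAR receptors had the lowest median of the 47 lists, −0.31, with 17 of 19 below 0 (52.1% of all genes were) and 11 (57.9%) below all controls on both AngII arrays (13.5% of all genes). Against KO PBS 4 the median was −0.19. Txnip, a thioredoxin inhibitor that limits glucose uptake, read 10.73 and 11.28 against 11.29, 12.43 and 12.17, a difference of −0.95 ± 0.27. The uncoupling protein Ucp3 read 7.56 and 8.10 against 8.20, 9.05 and 8.69 (−0.81 ± 0.31). Angptl4, an inhibitor of lipoprotein lipase, read 7.26 and 7.74 against 8.20, 9.44 and 8.34 (−1.16 ± 0.44). In each of these KO PBS 3 was the highest array and KO AngII 3 the lowest. The differences from KO PBS 4 were −1.16 for Txnip, −0.86 for Ucp3 and −0.84 for Angptl4. Dimmer probe sets gave −0.33, −0.41 and 0.14 against all 3 controls, and −1.33, −0.71 and 0.13 against KO PBS 4.

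Mitochondrial lists had medians from −0.09 to −0.01, against −0.01 for all genes. The 22 TCA cycle genes had a median of −0.09, and 8 (36.4%) were below all controls, beside 13.5% of all genes. Against KO PBS 4 the median was −0.12, with 21 below 0 and 1 above, where 50.4% of all genes were above. Sdha, of succinate dehydrogenase, differed by −0.31 ± 0.14, although its 4 probe sets ranged up to 0.00, and fumarase Fh1 by −0.23 ± 0.10; against KO PBS 4 they differed by −0.26 and −0.17. The 48 genes of oxidative phosphorylation had the median of all genes, −0.01 (−0.06 against KO PBS 4). Of them 10 (20.8%) were below all controls and 2 (4.17%) above, beside 13.5% and 12.5% of all genes. Ndufv1 of complex I differed by −0.27 ± 0.10, and −0.17 against KO PBS 4. The 42 mitochondrial ribosomal protein genes had a median of −0.09 with 17 below all controls (40.5%, and 13.5% of all genes) and 0 above. Mrpl39 of that list differed by −0.34 ± 0.12, and −0.37 ± 0.16 against KO PBS 4.

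Sterol and glucose genes lay mostly below 0, by small amounts. The sterol list (19 genes) had a median of −0.09, also against KO PBS 4, with 15 below 0 (52.1% of all genes were). Both AngII arrays lay below all controls for 7 (36.8%, and 13.5% of all genes) and above for 1 (12.5% of all genes). Fdft1, squalene synthase, differed by −0.90 ± 0.24, but its 4 probe sets ranged from −0.90 to 0.07, and Insig1, a sterol sensor partner, by −0.78 ± 0.30; against KO PBS 4 they differed by −0.79 and −0.69. The 25 genes of glucose use had a median of −0.10, with 21 below 0, beside 52.1% of all genes. Of the 25, 6 (24.0%, and 13.5% of all genes) lay below all controls and 0 above (12.5% of all genes). Their median against KO PBS 4 was 0.00, with 13 below 0 and 12 above, where 50.4% of all genes were above. Phkg1, the catalytic subunit of muscle phosphorylase kinase, read 6.18 and 5.82 against 6.87, 6.85 and 6.66 (−0.79 ± 0.16, and −0.66 against KO PBS 4). Its second probe set differed by −0.24 from all 3 controls. Hexokinase Hk2 differed by −0.36 ± 0.14, and by −0.10 against KO PBS 4.

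Circadian genes were lower in part. The 22 genes had a median of −0.24, and −0.13 against KO PBS 4. Hlf, a clock output factor, read 7.74 and 7.29 against 8.23, 8.57 and 8.14, and the repressor Cry2 read 8.30 and 8.06 against 8.71, 8.72 and 8.54. Both were clear of all controls, at −0.80 ± 0.24 and −0.48 ± 0.15, or −0.62 and −0.37 against KO PBS 4. The repressor Per1, at 7.83 and 7.70, was level with KO PBS 4 (7.85) and below KO PBS 2 and 3 (8.76 and 8.88). Nr1d2, a nuclear receptor of the clock, differed by −0.34 ± 0.14 (−0.56 against KO PBS 4) through its brightest probe set and by 0.92 through the other.

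Among single genes with the smallest unadjusted p, the largest difference was in Cenpf, a centromere protein of dividing cells. Cenpf read 7.49 and 7.57 under AngII and 8.34, 8.86 and 9.10 under PBS, a difference of −1.24 ± 0.23, and −1.57 ± 0.28 against KO PBS 4 (adjusted p = 0.892 and 1.0). The 2 dimmer probe sets of the gene differed by −0.12 and 0.27, and the 39 genes of cell cycle and mitosis had a median of 0.00. Bcl2l11, the pro-apoptotic protein Bim, read 8.60 and 8.60 against 9.23, 10.33 and 9.70 (−1.16 ± 0.28, and −1.11 against KO PBS 4), and its 5 probe sets ranged from −1.16 to 0.22.

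Several others were separated from every control, which was a condition of choice for Ano10, Gdap10 and Alas2. Rbmxl2, an RNA-binding protein of germ cells, read 5.28 and 5.36 against 6.41, 6.14 and 6.07 (−0.88 ± 0.15), the smallest unadjusted p of these genes (7e-05). Its signal was low, under the array median (6.15 to 6.23 on the KO arrays) on every KO array but KO PBS 2. Tbc1d10c, a Rab GTPase-activating protein of lymphocytes, differed by −0.78 ± 0.16, and Ano10, an anoctamin, by −0.96 ± 0.24. Actl6a, an actin-like chromatin remodelling subunit, differed by −0.66 ± 0.16, Serac1, of mitochondrial lipid remodelling, by −0.78 ± 0.18, and Gdap10 by −0.99 ± 0.27. The other probe sets of Actl6a differed by −0.31 and −0.01, and that of Serac1 by −0.13. Alas2, the haem synthesis enzyme of red cells, read 9.51 and 8.54 against 9.70, 9.57 and 10.40 (−0.87 ± 0.43), with KO AngII 4 the lowest. Against KO PBS 4 these 7 differed by −0.54 to −1.37.

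Further genes among the 20 with the smallest unadjusted p were 4 lower and 4 higher ones. Tmem47, a membrane protein of cell junctions, differed by −0.56 ± 0.14 (−0.53 against KO PBS 4), but its dimmer probe set by 0.73 against all controls and −0.26 against KO PBS 4. Msl2, a ubiquitin ligase, differed by −0.67 ± 0.18, Clec2d, a lectin-like receptor ligand, by −0.79 ± 0.21 and D830026I12Rik by −0.76 ± 0.21. Against KO PBS 4 they differed by −0.48, −0.51 and −0.75. The other probe sets of Msl2 differed by −0.47 and 0.00 from all 3 controls. Among the higher ones, Crhr1, a corticotropin-releasing hormone receptor, differed by 0.55 ± 0.15 and Klrb1f, a killer cell receptor, by 0.50 ± 0.11. The other probe sets of Crhr1 and Klrb1f differed by 0.10 and 0.01. Cd180, a surface protein of B cells, differed by 0.44 ± 0.11 and Gm5219 by 0.41 ± 0.09. These 4 differed by 0.36, 0.51, 0.37 and 0.31 from KO PBS 4. Klrb1f, Cd180 and Gm5219 read under 5.30 on all 5 arrays, below the array medians. D830026I12Rik, at 4.37 to 5.71, also lay below them.

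The pathway named in the title showed small differences at the transcript level. Mapk7, which encodes ERK5, read 7.20 and 7.22 against 7.03, 7.03 and 7.11 (0.15 ± 0.14), and Map2k5, its activating kinase, 7.87 and 7.85 against 8.14, 8.43 and 7.98 (−0.32 ± 0.20). Gnaq, the alpha-q subunit, differed by −0.17 ± 0.17, Sqstm1, a scaffold that binds PKCz, by 0.32 ± 0.18 and the AngII receptor Agtr1a by −0.16 ± 0.17. The probe sets of Gnaq ranged from −0.36 to 0.33 and those of Map2k5 from −0.32 to 0.19. A dimmer probe set of Sqstm1 differed by 0.09. The differences from KO PBS 4 were 0.10 for Mapk7, −0.12 for Map2k5, −0.13 for Gnaq, 0.20 for Sqstm1 and −0.28 for Agtr1a. None of the 5 had an unadjusted p under 0.05 in limma's fit over 10 arrays. In the fit of the 5 KO arrays Sqstm1 did (0.32 ± 0.11, unadjusted p = 0.0147, adjusted p = 0.726), and the other 4 did not.

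The 20 genes of the ERK5 cascade and MEF2 had a median of −0.10 (−0.04 against KO PBS 4). Hdac4, a histone deacetylase that restrains MEF2, differed by −0.33 ± 0.15 and −0.27 ± 0.21, and the kinase Map3k2 by −0.45 ± 0.25 and −0.03 ± 0.29. The 25 genes of Gq signalling had medians of −0.13 and −0.02. Itpr2, a calcium release channel, differed by −0.43 ± 0.19 and −0.17 ± 0.23, and Gna11, a Gq family subunit, by −0.44 ± 0.23 and 0.07 ± 0.22. The 12 protein kinase C genes had medians of −0.07 and 0.06, with the second atypical isoform, Prkci, at −0.41 ± 0.24 and −0.03 ± 0.28. Of 17 calcineurin and NFAT genes, the kinase Gsk3b differed by −0.62 ± 0.24 but by −0.02 ± 0.19 against KO PBS 4, and the phosphatase subunit Ppp3cb by −0.36 ± 0.14 and −0.28 ± 0.18. In Map3k2, Gna11, Prkci and Gsk3b the AngII arrays stood beside KO PBS 4 and apart from KO PBS 2 and 3.

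A set of genes, chosen for this pattern, separated the KO arrays by spike-in level: their differences from all 3 controls were among the largest, while those from KO PBS 4 were under 25% of them or of the other sign. Gsdme, a gasdermin, read 7.96 and 8.11 under AngII, 8.20 on KO PBS 4, and 6.03 and 6.60 on KO PBS 2 and 3. Dusp6, the phosphatase that switches off ERK1/2, read 7.69 and 7.56, then 7.56 on KO PBS 4, and 8.97 and 9.18 on KO PBS 2 and 3. S100a8, a neutrophil calcium-binding protein, read 7.05 and 6.04, then 6.31, and 8.35 and 8.41. In each, the 3 low-spike arrays lay on 1 side of KO PBS 2 and 3. The others were Eif2ak2, Dcun1d1, Cnnm4 and Pde3a on the higher side and Zeb2, Alpk3 and Ap2b1 on the lower. The WT arrays did not all keep to this order. WT AngII 2, with a high spike-in signal, read 8.56 for Dcun1d1, 7.89 for Gsdme, 7.48 for Cnnm4, 6.90 for Eif2ak2 and 6.83 for Pde3a. The low-spike KO arrays read 8.56 to 8.58 for Dcun1d1 and 7.58 to 7.64 for Cnnm4. They read 7.96 to 8.20 for Gsdme, 7.02 to 7.14 for Eif2ak2 and 7.02 to 7.76 for Pde3a, above WT AngII 2. WT AngII 2 also had the lowest actin 3′ minus 5′ signal of the WT arrays, 0.92 beside 1.01 to 1.70. For the lower genes it stayed above the low-spike KO arrays: 9.38 for Dusp6, 9.12 for Ap2b1, 8.82 for Zeb2, 8.81 for Alpk3 and 7.62 for S100a8. Whether these genes follow the spike-in signal, the RNA integrity or the labelling length was not tested. With KO PBS 2 and 3 as the controls, spike-in level and treatment cannot be told apart.

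**Figure D4:**
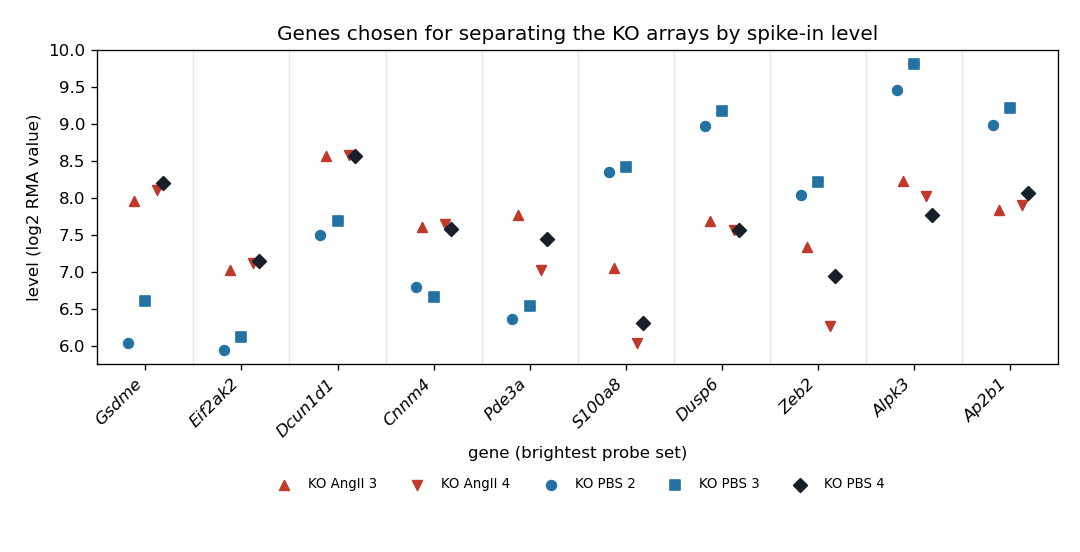
Levels (log2 RMA values, vertical axis) on each KO array of 10 genes chosen because they separate the KO arrays by spike-in level. KO PBS 4 (black) lies on the side of the AngII arrays (red), away from KO PBS 2 and 3 (blue); Dusp6, for example, read 7.56 on KO PBS 4 and 8.97 and 9.18 on the other controls.

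Immediate early and splicing genes carried part of this pattern. The 33 immediate early genes had a median of 0.00 against all 3 controls, 0.22 against KO PBS 4 and −0.31 against KO PBS 2 and 3. Egr1, a growth-response transcription factor, read 7.79 and 8.71 against 9.09, 10.42 and 8.60, and Junb, an AP-1 subunit, 6.67 and 6.29 against 7.53, 7.64 and 6.75. Klf10, a TGF-beta-inducible factor, read 7.30 and 7.16 against 7.48, 8.61 and 7.84. For Egr1 and Junb, KO PBS 4 was the lowest control, and the differences from it were −0.35 and −0.27, beside −0.61 for Klf10.

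The 38 spliceosome and RNA-binding genes had a median of −0.13, and 0.02 against KO PBS 4. Hnrnpl, an RNA-binding regulator of splicing, read 8.26 and 7.86 with KO PBS 4 at 7.90, against 9.26 and 9.63 on KO PBS 2 and 3. Thrap3, a splicing cofactor, and Clk1, a kinase of splicing factors, differed by −0.59 ± 0.18 and −0.49 ± 0.15, and by −0.88 ± 0.21 and −0.55 ± 0.20 against KO PBS 4. Rbm5 differed by −0.48 ± 0.16 and −0.21 ± 0.18. The 24 heat shock genes had medians of −0.03 and 0.17; Hsp90aa1, the inducible cytosolic HSP90, differed by 0.45 ± 0.16 and 0.60 ± 0.21, with probe sets from −0.25 to 1.06.

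**Figure D5:**
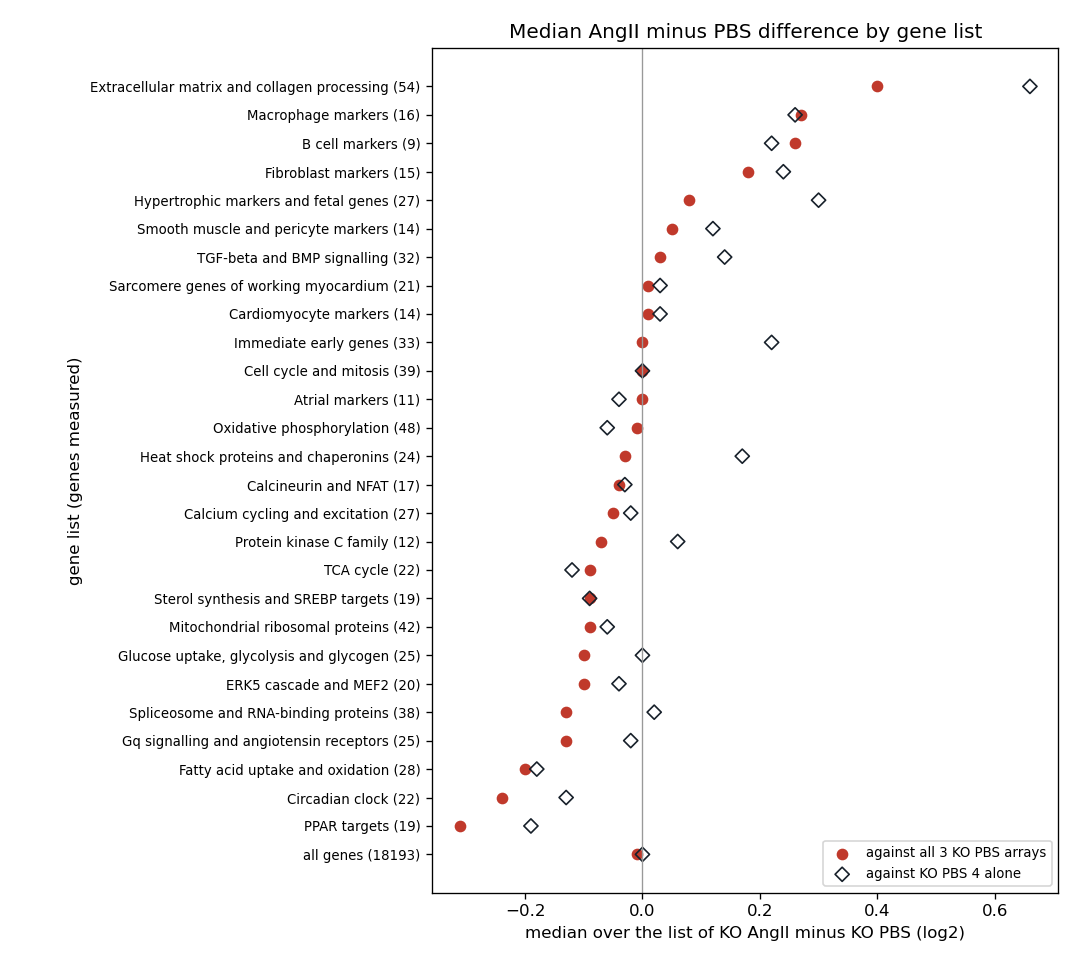
Median over each of 27 gene lists of the KO AngII minus KO PBS difference (log2, horizontal axis), as red circles against all 3 KO PBS arrays and open diamonds against KO PBS 4 alone; the number of genes measured is in parentheses, and all genes are in the bottom line. Matrix genes are highest (0.40 and 0.66) and PPAR targets lowest (−0.31 and −0.19), while the matrix, immediate early, heat shock and hypertrophic lists move by over 0.15 between the controls used.

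Against the WT hearts no probe set was called. The test of the difference between the KO and WT responses gave 0 of 45037 (0.0%) at an adjusted p under 0.05 in limma, and 737 (1.64%) at an unadjusted p under 0.05. Against KO PBS 4 alone it also gave 0. All WT arrays had high spike-in signal, so the KO response crosses spike-in levels where the WT response does not.

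For the matrix, Col3a1 differed by 1.35 ± 0.63 in WT and 1.42 ± 0.63 in KO, and Col1a1 by 1.75 ± 0.85 and 1.49 ± 0.85. The difference between the responses was 0.08 ± 0.90 and −0.26 ± 1.20, so intervals are wide. Without WT AngII 2 the WT differences were 0.42 for Col3a1 and 0.49 for Col1a1. The median WT difference of the matrix list was 0.56, and 0.09 without WT AngII 2; the KO median of 0.40 did not contain that array. Nppa differed by 0.58 ± 0.15 in WT, 0.23 ± 0.21 less than in KO.

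Ankrd1 and Nppb differed more between genotypes without passing. Ankrd1 stood at −0.05 ± 0.08 in WT, and the difference between responses was 0.43 ± 0.12 (adjusted p = 1.0). Its means under PBS and AngII were 13.38 and 13.76 in KO and 13.80 and 13.75 in WT. Nppb stood at −0.66 ± 0.36 in WT, 1.30 ± 0.51 below its KO difference (adjusted p = 1.0). The Nppb means were 12.17 and 12.82 in KO and 13.66 and 13.01 in WT. For both genes KO PBS was the lowest group, and KO AngII did not exceed WT PBS. Acta1 differed by 0.43 in both genotypes. Of the lower genes, Cenpf, Bcl2l11, Rbmxl2 and Txnip differed by −0.24, 0.12, 0.04 and −0.04 in WT. The differences between responses, −0.99 ± 0.33, −1.27 ± 0.39, −0.92 ± 0.21 and −0.91 ± 0.38, had an adjusted p of 1.0 each. For Cenpf the genotypes started from unlike levels. Its means under PBS and AngII were 8.77 and 7.53 in KO, but 6.49 and 6.25 in WT, near the array medians. Whether this low WT level limited a fall there was not tested. Fatty acid genes had a median of −0.27 in WT, and 28 of 28 were not above 0 there. Of all 18193 genes, 8914 were above 0 in WT.

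Mgst1, a microsomal glutathione transferase, went in opposite directions. It read 11.70 and 11.97 against 10.99, 11.19 and 11.40 in KO, a difference of 0.64 ± 0.16, and 0.43 ± 0.20 against KO PBS 4. In WT it read 11.38, 11.60 and 11.32 under AngII and 11.83 and 12.19 under PBS, a difference of −0.58 ± 0.16. The groups did not overlap in either genotype. The difference between responses was 1.22 ± 0.23 (limma adjusted p = 1.0), and the second, dim probe set differed by 0.12 in KO.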

How the data were processed

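Heart RNA of 10 samples was read on 1-colour Affymetrix arrays. The authors deposited log2 expression values made with RMA (background correction, quantile normalisation, probe summary), per the submitters' processing notes (version not given in the sources used here). Tests covered 45037 probe sets, without the 64 array controls. Symbols came from GEO's platform annotation, updated with RefSeq (GRCm38.p6): 34945 probe sets had 1 symbol, 932 several and 9160 none. A gene is represented by its brightest probe set (18193 genes). Arrays have no read depth, and their number limits the precision.

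Fits used limma 3.58.1 (R 4.3.3), with lmFit on the means of the 4 groups, all 10 arrays, trended eBayes, two-sided tests and Benjamini-Hochberg over 45037 probe sets. The fit was tested on simulated data. Alternatives were the control arrays used, array scaling, a level filter, the eBayes variant, array weights, a replicate block, only the 5 KO arrays, a mean over probe sets, and leaving out each array. Leaving out arrays within the KO-only fit was chosen after seeing the data.

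Members and lists were chosen with earlier results of these data known. Genes named are pathway and hypertrophy genes, the 20 of smallest unadjusted p, and 2 to 5 of smallest p per list. Also named are up to 8 a direction with the largest difference under both controls. These 8 were taken only from genes with both KO AngII arrays beyond all 3 KO PBS arrays. Up to 5 a direction that follow KO PBS 2 and 3 were added.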

Additional observations from a re-analysis of the deposited data

Results flagged for a closer look

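Mgst1 differed in opposite directions in the genotypes: every KO AngII array lay above every KO PBS array, and every WT AngII array lay below every WT PBS array. The difference between the responses was 1.22 log2 units, and 1.01 against KO PBS 4. This did not pass limma's interaction test over all probe sets (adjusted p = 1.0, unadjusted p = 0.00017).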

How the results depend on the processing

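Of 94 genes followed through the settings, 81 kept the direction of their difference under all 26 other settings. Many of these settings could not change it. The level filter, the eBayes variants, the fit of KO arrays only and leaving out a WT array alter the test, not the difference. Leaving out a KO array gives the same difference with or without the WT arrays. Some genes were also chosen for a large difference under both controls, so the 81 overstates how far direction was tested. Retnla, Rnase2a and Gdpd3 were not among the 94. Tgfbr3, a TGF-beta receptor not described above, was among them, with values from −0.33 to 0.12. The sign turned against KO PBS 4 alone for Alpk3 (0.35), Dusp6 (0.07), Eif2ak2 (−0.07), Gna11 (0.07), Gsdme (−0.16), Hnrnpl (0.16), Pde3a (−0.05) and S100a8 (0.23). When a gene's probe sets were averaged it turned for Myh6 (1.12), Nr1d2 (0.29), Tgfbr3 (0.12) and Tmem47 (0.09), and for Myh7 without KO AngII 4 (−0.10, also among KO arrays only; 0.59 without KO AngII 3). The causes were not tested.

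Calls against all 3 KO PBS arrays numbered 2 with only the 5 KO arrays, and 0 to 3 when each of the 10 arrays was left out: 3 without KO AngII 3 (Retnla, Rnase2a and an unnamed probe set) and 1 without KO AngII 4 (Gdpd3). Among KO arrays only, they were 0 without KO PBS 2 or 3, 5 without KO AngII 3, 1 without KO AngII 4 and 855 without KO PBS 4, the low-spike control. Unadjusted counts (2060) became 1127 over brighter probe sets, 4803 with array weights, 409 against KO PBS 4, 4739 against KO PBS 2 and 3, and 888 to 4744 leaving out an array, with 3608 without WT AngII 2. Among KO arrays only they were 1260 without KO AngII 3, 971 without KO AngII 4 and 7548 without KO PBS 4. Against KO PBS 4, calls were 1 with array weights (Nppa), 6 with only KO arrays, and 0 to 2 leaving out an array; unadjusted counts (409) were 2426, 1018 and 291 to 988, and 205 over brighter probe sets. Calls of the KO minus WT response were 0 to 2 leaving out an array, and its unadjusted count (737) 3201 with array weights, 1359 against KO PBS 2 and 3, 281 over brighter probe sets, and 488 to 1551 leaving out an array.

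With the title number as a replicate block, 0 probe sets were called and 1357 had an unadjusted p under 0.05. The labels do not say that numbers pair samples, and the deviations of same-numbered KO arrays correlated at 0.021 and 0.103, over only 2 pairs. The deviations of KO AngII 3 and 4 from their mean mirror each other. Unlike-numbered arrays therefore gave −0.103 and −0.021 by construction, and these values cannot settle whether numbers pair samples.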
